A study of Arabidopsis thaliana with 8 samples.

Results

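Seedlings of the gbf1 hy5 double mutant were compared with seedlings of the gbf1 hyh double mutant, so that the gene lost beside GBF1 was HY5 in the first and HYH in the second. The compared genotypes had 4 arrays, 2 each, of 8 arrays in all, and every probe set except the AFFX controls was covered, 22746 of 22810. The other 4 arrays held wild type (Col-0) and the gbf1 single mutant, 2 each. All 8 arrays entered the fit, so the other 4 helped to set the SE and adjusted p of each difference. All seedlings were whole, 4 days old and raised at 22 °C under unbroken white light (20 µmol per square metre and second), having spent 4 days at 4 °C on plates that held 1% sucrose. Both double mutants carried a gbf1 mutation, as did the single mutant. The labels name no allele, and they give an ecotype for wild type only, so a difference of genetic background between the double mutants cannot be told apart from the loss of HY5 or HYH. The replicates are called biological in the labels, with no statement of separate plates or days.

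GBF1, HY5 and HYH are transcription factors of the bZIP class, which bind DNA elements with an ACGT core such as the G-box. HY5 promotes the light-grown form of the seedling, with short hypocotyl, green cotyledons and chloroplast development, and is degraded in darkness through the COP1 ubiquitin ligase. HYH is the closest relative of HY5 and has overlapping targets, and GBF1 is known both to promote and to restrain parts of the light response.

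Array values are log2 signals with the probe set's own median over the 8 arrays set to 0. Every difference is the mean of gbf1 hy5 minus the mean of gbf1 hyh on that scale, with its standard error (SE) and n = 2 arrays per genotype, and a positive difference means a higher signal in gbf1 hy5. A probe set was called where limma's moderated test gave an adjusted p under 0.05. RNA came from whole seedlings, so fewer cells of a type and less RNA per cell cannot be told apart.

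The arrays were not all alike before any comparison. The 18 hybridisation controls averaged 1.499 on gbf1 hyh replicate 2 and 1.79 on the second gbf1 array, against -0.522 to 0.268 elsewhere. The 27 poly-A controls lay between -0.231 and 0.231. Replicates differed with an SD of 0.239 over probe sets in gbf1 hy5 and 0.350 in gbf1 hyh. On the second principal component, with 25.8% of the variance, the gbf1 hyh arrays lay at -20.4 and -45.1. Among the mutated genes, the probe table gave a separate probe set to HYH (AT3G17609) alone. HYH stood at -2.03 and -1.78 in gbf1 hyh, at -1.01 and -0.85 in gbf1 hy5 and at 1.69 and 1.94 in gbf1. Both gbf1 hyh arrays were the lowest of the 8, which follows the label, and both gbf1 hy5 arrays were the next lowest. Neither the stretch of HYH read by the probe set nor the lesion in the hyh allele is given in the sources used here. The difference between the double mutants was 0.97 (SE 0.166, limma adjusted p = 0.0166), and its call ended without either gbf1 hy5 array or without gbf1 hyh replicate 1 (adjusted p up to 0.174). After quantile normalisation it was 0.53 and not called (adjusted p = 0.160).

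Seedlings of gbf1 hy5 and gbf1 hyh differed in 631 probe sets in limma, 2.77% of those tested. Of these, 400 (1.76%) were higher and 231 (1.02%) lower in gbf1 hy5, and 381 (1.68%) differed by at least 2-fold, 240 higher and 141 lower. The median difference over all probe sets was -0.01. In each called probe set both arrays of one double mutant lay above both of the other, as they did in 44.1% of all probe sets. The count rested on few arrays. It was 162 without gbf1 hy5 replicate 2, 175 without gbf1 hy5 replicate 1, 299 without gbf1 hyh replicate 2, and 655 without both arrays of high hybridisation control signal.

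**Figure D1:**
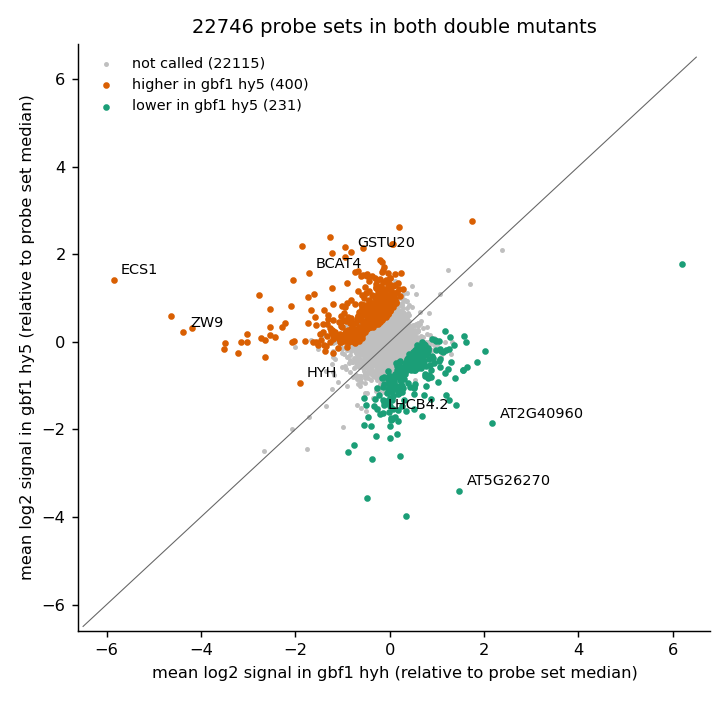
Mean log2 signal of each of the 22746 probe sets in gbf1 hyh (x axis) and gbf1 hy5 (y axis), each relative to the probe set's median over 8 arrays, with the diagonal marking equal signal and 8 genes named. The 400 probe sets called higher in gbf1 hy5 lie above the diagonal and the 231 called lower lie below it, and ECS1 and ZW9 lie far to the left, at low signal in gbf1 hyh.

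Of the 631 called probe sets, 309 were tied to 1 gene in the probe table, 2.29% of the 13513 such probe sets tested. Of these, 195 (1.44%) were higher in gbf1 hy5 and 114 (0.844%) lower. The other 322 called probe sets had no gene or several there and are described by count alone. Only 54 of the 309 genes carried a symbol in the gene table used here, 3.42% of the 1580 tested with one. Of all 309, 63.1% were higher in gbf1 hy5, and of the 54, 37 (68.5%) were higher and 17 lower. Directions within the groups below are descriptions beside these shares. Shares called in the lists are set beside 2.29%. For lists matched by symbol, the 3.42% of genes with a symbol is the closer background. The rest of the 309 have locus names and no stated role, so the functions below cover 54 called genes. Measured members of a list are those that its names or words matched among probe sets tied to 1 gene. Other members of a family may lie among the locus names or among the 322 called probe sets without 1 gene.

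The 2 double mutants also differed in which of them stood apart from seedlings with both HY5 and HYH. For each called probe set the 2 arrays of each double mutant were set against the range of the 4 wild type and gbf1 arrays. A double mutant is called outside, above or below that range, or apart, only where both its arrays lay beyond the same end, so a genotype that is not apart may still have 1 array beyond it. In 243 called probe sets (38.5%) only gbf1 hy5 lay outside that range, 165 above it and 78 below. In 154 (24.4%) only gbf1 hyh lay outside, 57 above and 97 below. Both lay outside in 211 (33.4%), and neither did in 23 (3.65%). Over all probe sets tested the same classes held 16.9%, 11.1%, 8.3% and 63.7%. Among the 211, the double mutants often lay on opposite sides. In 107 gbf1 hy5 lay above and gbf1 hyh below, against 0.827% of all probe sets, and in 51 gbf1 hy5 lay below and gbf1 hyh above, against 0.55%. The others lay on the same side, 19 above and 34 below. This is a description without a test, since the call and the range use the same arrays of the double mutants.

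**Figure D2:**
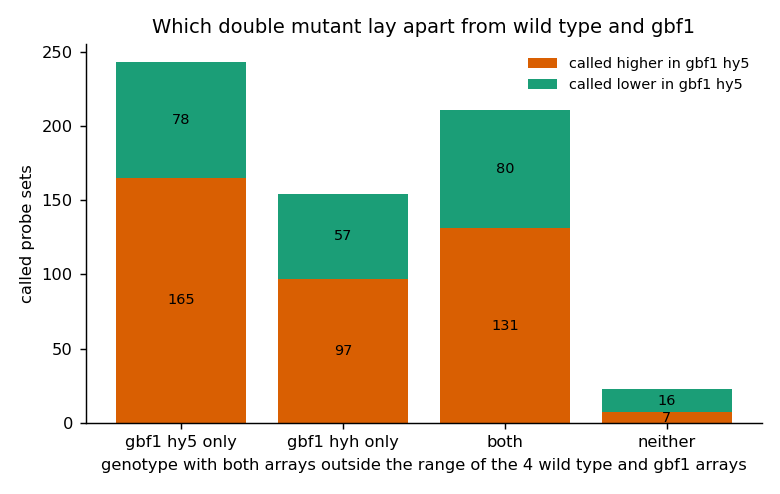
Number of called probe sets (y axis) by the double mutant whose arrays both lay outside the range of the 4 wild type and gbf1 arrays (x axis), split by the direction of the call. The class of gbf1 hy5 alone held 165 called higher and 78 called lower in gbf1 hy5, and the class of gbf1 hyh alone held 97 and 57.

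Among probe sets tied to 1 gene, the widest gap between the double mutants was in ECS1 (AT1G31580), a gene for a secreted cell wall protein. ECS1 stood at -6.01 and -5.69 in gbf1 hyh and at 1.58 and 1.25 in gbf1 hy5, with wild type at -0.35 and -0.32 and gbf1 at 1.05 and 0.32. The gbf1 hyh arrays lay far below all others, and the gbf1 hy5 arrays above all others. The difference was 7.27 (SE 0.238, limma adjusted p = 2.27e-06), or 154-fold. It was 4.99 after quantile normalisation and still called. ZW9 (AT1G58270) showed the low gbf1 hyh signal without a shift in gbf1 hy5. It stood at -4.53 and -4.23 in gbf1 hyh, at 0.29 and 0.15 in gbf1 hy5, at -0.39 and -0.15 in wild type and at 0.79 and 0.99 in gbf1. The gbf1 hy5 values of ZW9 fell between those of wild type and gbf1, and the difference was 4.60 (SE 0.167, limma adjusted p = 2.39e-06).

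Low signal in gbf1 hyh was shared by most of the largest rises. Of the 12 called genes with the largest positive differences, 11 had both gbf1 hyh arrays below the range of wild type and gbf1, and 6 had both gbf1 hy5 arrays above it. Over all probe sets these shares were 8.52% and 14.9%. The genes were picked by the difference between the double mutants, so such places were partly set by the choice. AT1G23960 (4.49), AT4G02540 (3.46), AT1G35612 (3.15) and AT1G16260 (3.01) were, like ZW9, below the range in gbf1 hyh with gbf1 hy5 not apart. In the last 3 of these, 1 gbf1 hy5 array lay below the range. Differences of AT1G23960, AT4G02540 and AT1G66100 were smaller after quantile normalisation, at 2.96, 2.29 and 1.86, and still called. AT4G02540, for example, stood at -3.32 and -3.68 in gbf1 hyh and at 0.09 and -0.16 in gbf1 hy5, with wild type at -0.07 and 0.10. AT1G66100 (2.96) was below the range in both double mutants, at -3.04 and -3.38 in gbf1 hyh and at -0.39 and -0.12 in gbf1 hy5. AT2G43535 (3.26), AT1G12400 (2.91) and AT4G11190 (2.89) were above the range in gbf1 hy5 and below it in gbf1 hyh. All 12 passed with any 1 array left out (adjusted p up to 0.0371).

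Low signal in gbf1 hy5 was shared by most of the largest falls. Of the 12 called genes with the largest negative differences, 11 had both gbf1 hy5 arrays below the range of wild type and gbf1, and 7 had both gbf1 hyh arrays above it. Over all probe sets these shares were 10.3% and 10.9%, and here too the places were partly set by the choice of genes. AT5G26270 stood at -3.37 and -3.43 in gbf1 hy5 and at 1.29 and 1.67 in gbf1 hyh, with wild type at -0.32 and -0.20. The double mutants lay on opposite sides of the other 4 arrays, with a difference of -4.88 (SE 0.166, limma adjusted p = 2.27e-06), or 29.4-fold. AT2G40960 did likewise, at -1.72 and -1.99 in gbf1 hy5 and 2.32 and 2.03 in gbf1 hyh (-4.03, SE 0.213, limma adjusted p = 2.96e-05). AT5G05750 (-2.83), AT1G50060 (-2.42), AT1G52050 (-2.21) and AT5G37360 (-2.06) also lay apart on both sides.

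AT5G64120, listed as peroxidase 71 in the gene table, was low in gbf1 hy5 alone. Peroxidases of this secreted class act on the cell wall and on reactive oxygen. AT5G64120 stood at -2.11 and -2.26 in gbf1 hy5, against 0.01 and -0.01 in gbf1 hyh, -0.16 and 0.15 in wild type and 0.34 and 0.28 in gbf1. No other array came near the gbf1 hy5 arrays, and the difference was -2.19 (SE 0.154, limma adjusted p = 0.000145). The other 6 measured peroxidases on the list were not called, from -0.70 to 0.44 (14.3% of the list called, against 2.29% of probe sets tied to 1 gene). Peroxidase genes that the list did not match may be among those given by locus name alone. AT5G54370 (-2.37), AT2G04800 (-2.30), AT5G02540 (-2.26) and AT4G26010 (-2.17) were below the range in gbf1 hy5 as well, with gbf1 hyh not apart from it, although 1 gbf1 hyh array of AT5G54370 lay above the range and 1 of AT2G04800 below it. AT5G09480 (-2.20) was instead above the range in gbf1 hyh. Of the 12, AT5G54370 lost its call without either gbf1 hy5 array (adjusted p up to 0.144). AT5G09480 lost its call without either gbf1 hy5 array, either wild type array or gbf1 hyh replicate 2 (adjusted p up to 0.199).

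**Figure D3:**
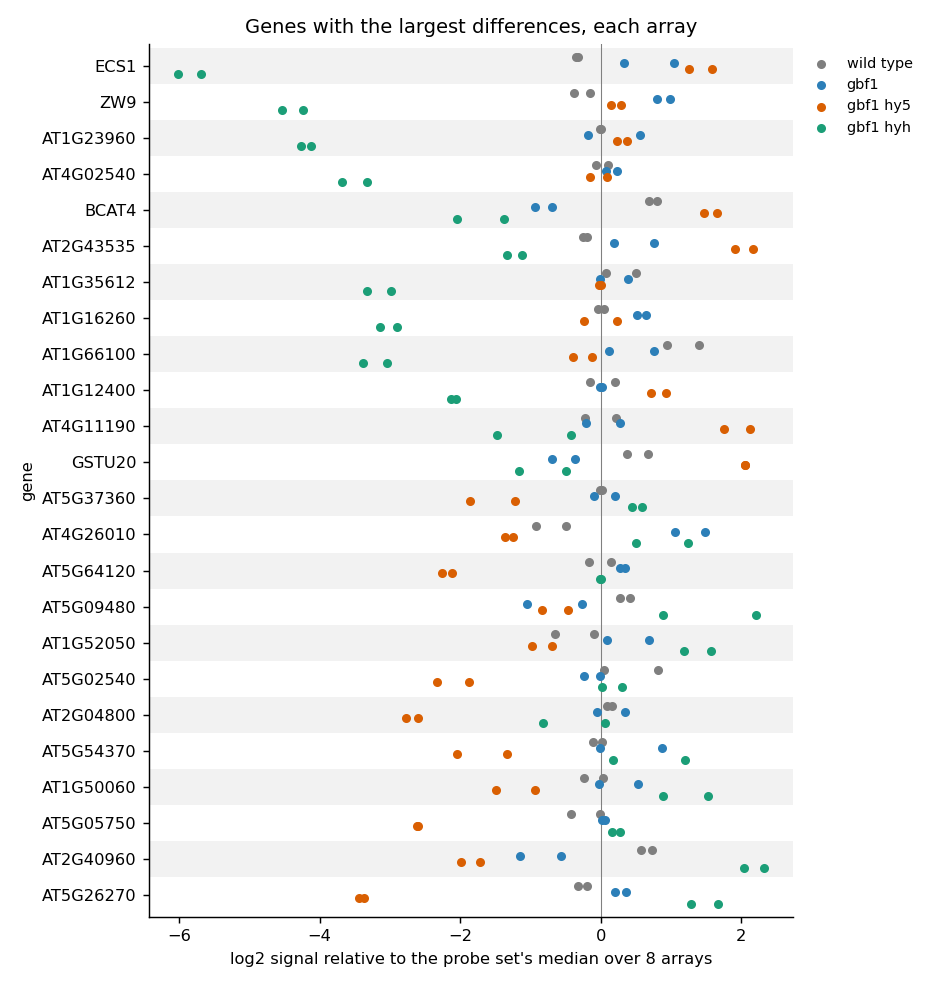
Log2 signal on each array (x axis, relative to the probe set's median over 8 arrays) for the 12 largest called rises and the 12 largest called falls in gbf1 hy5 against gbf1 hyh, coloured by genotype. In the upper genes the gbf1 hyh arrays lie to the left, down to -6.01 for ECS1, and in the lower genes the gbf1 hy5 arrays lie to the left, down to -3.43 for AT5G26270.

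Genes of light harvesting and the photosystems were lower in gbf1 hy5 where they were called. All 8 measured genes of this list had negative differences, from -1.45 to -0.15 with a median of -0.46, and 2 of them (25%) passed the test, against 2.29% of probe sets tied to 1 gene. Over all probe sets 51.4% had negative differences. LHCB4.2 encodes CP29, a minor antenna protein of photosystem II. It stood at -1.61 and -1.69 in gbf1 hy5, at -0.31 and -0.08 in gbf1 hyh, at 0.08 and 0.39 in wild type and at 0.81 and 0.44 in gbf1. Both double mutants lay below the other 4 arrays, with gbf1 hy5 well below gbf1 hyh, and the difference was -1.45 (SE 0.181, limma adjusted p = 0.00347). PSBW, a small subunit of photosystem II, stood at -0.58 and -0.84 in gbf1 hy5 and at 0.00 and 0.42 in gbf1 hyh. Its difference was -0.92 (SE 0.202, limma adjusted p = 0.0487). Both gbf1 hy5 arrays lay below the range of wild type and gbf1, and 1 gbf1 hyh array was slightly above it.

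The 6 members of that list that did not pass were the photosystem I subunits PSAN (-0.64, adjusted p = 0.101) and PSAE-1 (-0.46), the photosystem II protein PSBY (-0.47), the other CP29 genes LHCB4.3 (-0.31) and LHCB4.1 (-0.26), and RCA (-0.15), the activase of Rubisco. In 7 of the 8 genes both gbf1 hy5 arrays lay below the range of wild type and gbf1, as in 10.3% of all probe sets. Both gbf1 hyh arrays lay below it in 2, as in 8.52% of all probe sets.

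Of 9 measured genes of chlorophyll synthesis, 1 (11.1%, against 2.29% of probe sets tied to 1 gene) was called lower in gbf1 hy5, none higher and 8 did not pass, with a median of -0.22. The called gene was PORB, a light-dependent protochlorophyllide oxidoreductase. PORB stood at -0.21 and -0.52 in gbf1 hy5, at 0.27 and 0.57 in gbf1 hyh, at 0.21 and 0.33 in wild type and at -0.62 and -0.49 in gbf1. The gbf1 hyh arrays were close to wild type, while gbf1 hy5 was nearer to gbf1 (-0.79, SE 0.169, limma adjusted p = 0.0446). The 8 that did not pass lay on both sides of 0. HEME2 (-0.45), hemf2 (-0.27), CHLI2 (-0.27), CHLM (-0.22) and HEME1 (-0.11) had negative differences, and HEMA2 (0.36), GSA1 (0.28) and HEMB1 (0.13) positive ones.

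Further chloroplast genes outside these lists were called. TROL, a thylakoid protein that anchors ferredoxin-NADP reductase, was lower in gbf1 hy5 (-0.63, SE 0.139, limma adjusted p = 0.0496) and there lay below the range of wild type and gbf1. ATPC2, a gamma subunit of the chloroplast ATP synthase, was also lower in gbf1 hy5 (-1.05, SE 0.201, limma adjusted p = 0.0279). Here gbf1 hyh was the genotype apart, at 1.07 and 0.53, above all other arrays. LIL3:1, a light-harvesting-like protein needed for the phytol side of chlorophyll synthesis, went the other way (1.01, SE 0.158, limma adjusted p = 0.0112). LIL3:1 stood at -0.74 and -1.07 in gbf1 hyh, below all other arrays, and at 0.07 and 0.15 in gbf1 hy5. None of these 6 chloroplast calls passed with every array left out in turn: each ended without gbf1 hy5 replicate 2 (adjusted p up to 0.334). LIL3:1 also ended without gbf1 hy5 replicate 1 or gbf1 hyh replicate 2, PSBW and PORB without these or either wild type array, ATPC2 without gbf1 hy5 replicate 1, gbf1 hyh replicate 1 or either wild type array, and TROL without any 1 wild type, gbf1 hy5 or gbf1 hyh array. PSBW, PORB and TROL also missed the threshold without both arrays of high hybridisation control signal (adjusted p from 0.0728 to 0.120). In a fit of the 4 double mutant arrays alone LHCB4.2 and LIL3:1 passed and the other 4 did not (adjusted p from 0.0855 to 0.106), and PORB and TROL also missed the threshold after quantile normalisation (up to 0.0594).

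Of 69 probe sets for plastid-encoded genes none was called, with differences from -1.34 to 0.50 and a median of -0.15. The lowest was psaJ of photosystem I (-1.34, adjusted p = 0.105). It stood at -1.12 and -1.19 in gbf1 hy5 and at -0.50 and 0.87 in gbf1 hyh, so the gbf1 hyh arrays differed from each other by slightly more than the genotype means did. The next was psbM (-0.93, adjusted p = 0.329). Of the 69 differences 71% were negative, against 51.4% over all probe sets. Both gbf1 hy5 arrays lay below the range of wild type and gbf1 in 35 (50.7%) and above it in 1. Both gbf1 hyh arrays lay below it in 22 (31.9%) and above it in 2. Over all probe sets the shares below were 10.3% for gbf1 hy5 and 8.52% for gbf1 hyh.

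Genes of glucosinolate metabolism were higher in gbf1 hy5 where they were called. Glucosinolates are sulfur-rich defence compounds of the cabbage family, built in part from methionine. Of 8 measured genes, 3 (37.5%, against 2.29% of probe sets tied to 1 gene) were called higher in gbf1 hy5, none lower and 5 did not pass, with a median of 0.61 against -0.01 over all probe sets. BCAT4, the aminotransferase that opens the methionine chain elongation pathway, stood at 1.47 and 1.65 in gbf1 hy5 and at -1.38 and -2.05 in gbf1 hyh. Wild type stood at 0.80 and 0.69 and gbf1 at -0.93 and -0.69. The double mutants lay on opposite sides of the other 4 arrays, and the difference was 3.28 (SE 0.216, limma adjusted p = 9.63e-05), or 9.69-fold.

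GSTU20, a tau-class glutathione S-transferase, stood at 2.05 and 2.05 in gbf1 hy5, at -0.49 and -1.17 in gbf1 hyh, at 0.37 and 0.67 in wild type and at -0.37 and -0.70 in gbf1. Both gbf1 hy5 arrays lay above all others, 1 gbf1 hyh array lay below all others, and the difference was 2.88 (SE 0.229, limma adjusted p = 0.000319). UGT74B1, the glucosyltransferase of the glucosinolate core, stood at 0.69 and 1.05 in gbf1 hy5 and at -0.18 and -0.64 in gbf1 hyh (1.28, SE 0.246, limma adjusted p = 0.0285). The 5 that did not pass were BGLU28 (0.73), the side chain enzymes AOP1 (0.50, adjusted p = 0.125) and AOP3 (-0.05), and the transporters GTR1 (0.30) and GTR2 (0.18). SUFE2, an activator of sulfur transfer in iron-sulfur cluster assembly, was outside the list and was higher in gbf1 hy5 (1.03, SE 0.203, limma adjusted p = 0.0319).

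BCAT4 and GSTU20 passed with any 1 array left out and without both arrays of high hybridisation control signal. UGT74B1 ended without either gbf1 hy5 array or gbf1 hyh replicate 2 (adjusted p up to 0.248) and without both high-control arrays (0.0602). SUFE2 ended without any 1 wild type, gbf1 hy5 or gbf1 hyh array (adjusted p up to 0.265).

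Cell wall enzymes split in direction. Of 15 measured GH9 enzymes, which cut cellulose-like glucans, 2 were called higher in gbf1 hy5, 1 lower and 12 did not pass (20% called, against 2.29% of probe sets tied to 1 gene, median -0.16). GH9B8 stood at 1.46 and 1.73 in gbf1 hy5, at -0.31 and -0.03 in gbf1 hyh, at -0.36 and -0.39 in wild type and at 0.16 and 0.03 in gbf1. The gbf1 hy5 arrays lay above all others (1.77, SE 0.162, limma adjusted p = 0.000708). GH9C2 was higher as well (1.01, SE 0.212, limma adjusted p = 0.0416). GH9C1 was lower (-1.05, SE 0.202, limma adjusted p = 0.0286), at -0.88 and -0.57 in gbf1 hy5 and 0.23 and 0.42 in gbf1 hyh, with wild type at -0.23 and -0.60 and gbf1 at 1.34 and 0.93. For GH9C1 gbf1 was the highest genotype, and neither double mutant was apart from the range of wild type and gbf1, although 1 gbf1 hy5 array was the lowest of the 8.

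Of 27 expansins and xyloglucan enzymes, which loosen or rebuild the wall, 1 was called higher in gbf1 hy5, 1 lower and 25 did not pass (7.41% called against 2.29%, median -0.02). The expansin-like gene EXLB1 stood at 1.61 and 1.54 in gbf1 hy5 and at -0.03 and 0.49 in gbf1 hyh, and the gbf1 hy5 arrays lay above all others (1.35, SE 0.189, limma adjusted p = 0.00653). EXPA18, an expansin of root hair cells, was lower (-0.80, SE 0.161, limma adjusted p = 0.0332). EXPA18 stood at -0.30 and -0.34 in gbf1 hy5, 0.30 and 0.66 in gbf1 hyh, -0.50 and -0.68 in wild type and 1.37 and 1.41 in gbf1, so both double mutants lay between wild type and gbf1. The other measured root hair marker, EXPA7, differed by -0.13 (adjusted p = 0.884). XTH32 (-1.04, adjusted p = 0.0605), EXPB3 (0.85, adjusted p = 0.0544) and EXPA4 (1.07, adjusted p = 0.224) did not pass.

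Of 4 measured pectin enzymes on the list none was called, and the largest difference was that of the pectin methylesterase ATPMEPCRB (1.04, adjusted p = 0.0540). ATPMEPCRD, a pectin methylesterase that the list did not hold, was called higher in gbf1 hy5 (1.45, SE 0.250, limma adjusted p = 0.0176). Its gbf1 hy5 arrays stood at 1.05 and 1.0998, above all others, and its gbf1 hyh arrays at -0.81 and 0.06. Of the 7 called wall genes with a symbol, ECS1 among them, ECS1 and GH9B8 passed with any 1 array left out. The other 5 ended without either gbf1 hy5 array, EXPA18 also without either wild type array or gbf1 hyh replicate 2, and GH9C1 and GH9C2 also without either gbf1 hyh array (adjusted p up to 0.289). GH9C1, GH9C2 and EXPA18 also missed the threshold without both high-control arrays (adjusted p from 0.0584 to 0.124). EXPA18 and ATPMEPCRD did not pass in a fit of the 4 double mutant arrays alone (adjusted p up to 0.0871), nor GH9C2 after quantile normalisation (0.0796).

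Of the called regulators of light, clock, hormone response and development, HYH included, 7 (63.6%) were higher and 4 lower in gbf1 hy5. Among all called genes with a symbol 68.5% were higher. RR16, a type-A response regulator of cytokinin signalling, stood at 1.304 and 1.70 in gbf1 hy5, at -0.32 and -0.88 in gbf1 hyh, at 0.62 and 0.26 in wild type and at -0.57 and -0.26 in gbf1. The gbf1 hy5 arrays lay above all others, and the gbf1 hyh arrays near gbf1 (2.104, SE 0.233, limma adjusted p = 0.00185). The clock gene GI (GIGANTEA), which also promotes flowering in long days, stood at -0.36 and -0.54 in gbf1 hy5, at 1.37 and 0.72 in gbf1 hyh, at 0.36 and 0.44 in wild type and at -0.37 and -0.88 in gbf1. For GI gbf1 hyh was the genotype apart, above all other arrays, and the difference was -1.497 (SE 0.237, limma adjusted p = 0.0116). Of the 36 names on the clock list, the probe table used here tied a separate probe set to GI alone. The other clock genes could therefore not be read, whether or not the array holds probe sets for them.

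Of 13 measured genes of auxin response and transport, 1 was called lower in gbf1 hy5, none higher and 12 did not pass (7.69% called against 2.29% of probe sets tied to 1 gene, median -0.10). The called gene was IAA29, an Aux/IAA repressor of auxin response. IAA29 stood at -1.48 and -1.305 in gbf1 hy5 and at 0.03 and -0.16 in gbf1 hyh, with wild type at 0.25 and 0.75 and gbf1 at -0.03 and 0.03. Both gbf1 hy5 arrays and, by less, 1 gbf1 hyh array lay below the range (-1.32, SE 0.185, limma adjusted p = 0.00646). GH3.3, an enzyme that conjugates auxin, did not pass (-0.84, adjusted p = 0.0948). WAG2, a kinase related to PINOID that acts on auxin efflux carriers, was higher in gbf1 hy5 (1.17, SE 0.234, limma adjusted p = 0.0334). BAT1, an acyltransferase that lowers active brassinosteroids, was higher too (1.06, SE 0.233, limma adjusted p = 0.0487).

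Both UPB1 and tny were lower in gbf1 hy5 and lay below the range there. UPB1 is a bHLH factor that controls peroxidase genes and the onset of differentiation in the root (-1.32, SE 0.259, limma adjusted p = 0.0314). The second, tny (TINY), is a factor of the AP2/ERF class (-0.90, SE 0.172, limma adjusted p = 0.0285). Higher in gbf1 hy5 were ATC, a floral repressor related to TFL1 (1.28), AGL87, a MADS-box factor (1.51), and AGO7, the argonaute protein of trans-acting small RNA formation (0.80). ATC and AGO7 were above the range in gbf1 hy5, while AGL87 was below it in gbf1 hyh, at -0.66 and -1.47. Of the 11 called regulators, HYH included, RR16 passed with any 1 array left out and the other 10 did not (adjusted p up to 0.324). GI and IAA29 ended without either gbf1 hy5 array, ATC without those or gbf1 hyh replicate 2, WAG2 without gbf1 hy5 replicate 1, gbf1 hyh replicate 2 or either wild type array, and tny without any 1 array of a double mutant. UPB1 and AGL87 ended without either gbf1 hy5 array, either wild type array or gbf1 hyh replicate 2, AGO7 without any 1 wild type, gbf1 hy5 or gbf1 hyh array, and BAT1 without any 1 array except gbf1 hyh replicate 2. UPB1, tny, AGO7 and WAG2 missed the threshold without both high-control arrays (adjusted p from 0.0502 to 0.114). In a fit of the 4 double mutant arrays alone HYH, GI, IAA29, RR16 and ATC passed and the other 6 did not (adjusted p from 0.0521 to 0.126). AGO7, BAT1 and WAG2 also did not pass after quantile normalisation, and BAT1 differed by 0.69 without gbf1 hyh replicate 1.

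**Figure D4:**
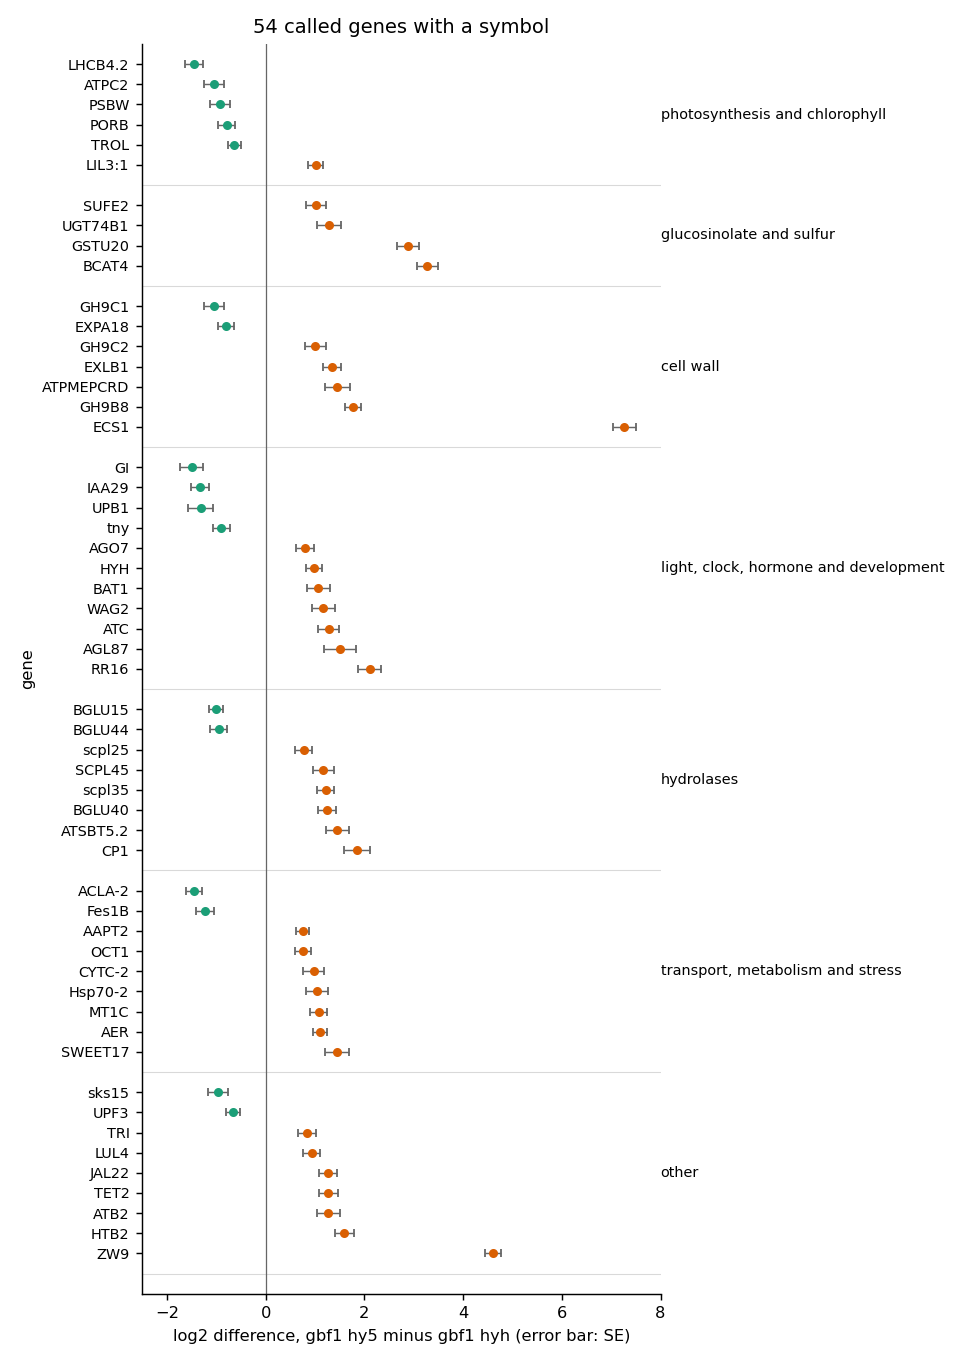
Log2 difference of gbf1 hy5 minus gbf1 hyh (x axis) with its SE for the 54 called genes that carry a symbol, grouped by role and coloured by direction. The photosynthesis and chlorophyll group holds 5 genes to the left of 0 and LIL3:1 to the right, the 4 glucosinolate and sulfur genes lie to the right, and ECS1 at 7.27 lies farthest from 0.

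Of the 8 called hydrolases with a symbol, 6 (75%) were higher in gbf1 hy5 and 2 lower, against 68.5% higher among all called genes with a symbol. Of 29 measured serine carboxypeptidase-like genes, a family of proteases and acyltransferases, 3 were called higher, none lower and 26 did not pass (10.3% called against 2.29% of probe sets tied to 1 gene, median 0.03). They were scpl35 (1.22, SE 0.173, limma adjusted p = 0.00686), SCPL45 (1.17) and scpl25 (0.77). The gbf1 hy5 arrays of scpl35 stood at 1.34 and 1.096, above all others, and its gbf1 hyh arrays at 0.01 and -0.01. SCPL45 and scpl25 were instead below the range in gbf1 hyh, at -0.51 and -0.57 and at -0.73 and -0.38. Also higher, with gbf1 hy5 arrays above all others, were the cysteine protease CP1 (1.85, SE 0.260, limma adjusted p = 0.00666) and the subtilase ATSBT5.2 (1.45, SE 0.228, limma adjusted p = 0.0113).

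Of 20 measured beta-glucosidases, which release sugars from glucosides, 1 was called higher, 1 lower and 18 did not pass (10% called against 2.29%, median -0.07). BGLU40 stood at 0.81 and 0.66 in gbf1 hy5 and at -0.27 and -0.75 in gbf1 hyh, on opposite sides of wild type and gbf1 (1.24, SE 0.179, limma adjusted p = 0.00728). BGLU15 was above the range in gbf1 hyh, at 0.66 and 0.61, against -0.42 and -0.32 in gbf1 hy5 (-1.01, SE 0.139, limma adjusted p = 0.00628). BGLU44, of the same family but not on the list, was also above the range in gbf1 hyh (-0.95, limma adjusted p = 0.0222). None of the 8 called hydrolases passed with every array left out in turn (adjusted p up to 0.300), and all 8 passed without both high-control arrays. BGLU44 and scpl25 did not pass in a fit of the 4 double mutant arrays alone (adjusted p up to 0.0980), nor scpl25 after quantile normalisation (0.0850). The call of scpl35 ended without gbf1 hy5 replicate 1, those of BGLU15, BGLU40 and CP1 without either gbf1 hy5 array, and that of ATSBT5.2 without those or gbf1 hyh replicate 2. BGLU44 ended without either gbf1 hy5 array, either wild type array or gbf1 hyh replicate 1, and SCPL45 and scpl25 without any 1 wild type, gbf1 hy5 or gbf1 hyh array.

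Transport, metabolism and stress genes made a mixed group of 9, 7 (77.8%) higher and 2 lower in gbf1 hy5, against 68.5% higher among all called genes with a symbol. Of 16 measured SWEET sugar transporters 1 was called higher and 15 did not pass (6.25% called against 2.29%, median -0.06). SWEET17, a fructose transporter of the vacuole, stood at 0.73 and 0.39 in gbf1 hy5 and at -1.26 and -0.50 in gbf1 hyh, on opposite sides of the other arrays (1.44, SE 0.241, limma adjusted p = 0.0149). Its close relative SWEET16 did not pass (0.75, adjusted p = 0.0710). ACLA-2, a subunit of ATP citrate lyase, which supplies acetyl-CoA in the cytosol, was lower in gbf1 hy5. ACLA-2 stood at 1.67 and 1.48 in gbf1 hyh, above all other arrays, and at -0.05 and 0.29 in gbf1 hy5 (-1.45, SE 0.160, limma adjusted p = 0.00182). Fes1B, a nucleotide exchange factor of Hsp70 chaperones, was likewise above the range in gbf1 hyh (-1.23, limma adjusted p = 0.00849).

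AER, a reductase that detoxifies reactive aldehydes, was higher in gbf1 hy5, with the double mutants on opposite sides of wild type and gbf1 (1.098, SE 0.139, limma adjusted p = 0.00372). The metallothionein gene MT1C (1.07) and the cytochrome c gene CYTC-2 (0.97) were below the range in gbf1 hyh. Hsp70-2 (1.04) was above it in gbf1 hy5. OCT1, an organic cation transporter (0.76), was above it in both double mutants, though 1 gbf1 hyh array barely so, and the phospholipid gene AAPT2 (0.75) was above it in gbf1 hy5 and below it in gbf1 hyh. All 9 passed without both high-control arrays, and ACLA-2 passed with any 1 array left out. The other 8 did not (adjusted p up to 0.284): AER ended without gbf1 hy5 replicate 2, Fes1B without gbf1 hy5 replicate 1, SWEET17 without either gbf1 hy5 array, and MT1C without those or gbf1 hyh replicate 2. CYTC-2 ended without these 3 or either wild type array, and Hsp70-2, OCT1 and AAPT2 without any 1 wild type, gbf1 hy5 or gbf1 hyh array. Hsp70-2, OCT1, AAPT2, CYTC-2 and SWEET17 did not pass in a fit of the 4 double mutant arrays alone (adjusted p up to 0.0933), nor AAPT2 and Hsp70-2 after quantile normalisation (up to 0.0653).

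The remaining 9 called genes with a symbol were ZW9 and 8 others. HTB2, a histone H2B gene, stood at 1.01 and 1.29 in gbf1 hy5, above all other arrays, and at -0.26 and -0.62 in gbf1 hyh (1.59, SE 0.192, limma adjusted p = 0.00292). The other 4 measured histone genes were not called, from -0.13 to 0.15 (20% of the list called, against 2.29% of probe sets tied to 1 gene). The tetraspanin gene TET2 was above the range in gbf1 hy5 (1.27, SE 0.196, limma adjusted p = 0.0109). Of the 4 jacalin-type lectins on the list, JAL22 was called higher in gbf1 hy5 (1.26, SE 0.185, limma adjusted p = 0.00824) and 3 did not pass. This was 25% called, against 2.29% of probe sets tied to 1 gene. Lectin genes that carry a locus name alone may be missing from that list. Also higher were ATB2, an aldo-keto reductase (1.27), LUL4, a RING-type ubiquitin ligase (0.93), and TRI, a tropinone reductase-like gene (0.84). Lower were sks15, of the multicopper oxidase-like SKU5 family (-0.97), and UPF3, a factor of nonsense-mediated RNA decay (-0.65), both above the range in gbf1 hyh. Of these 9, ZW9 passed with any 1 array left out. HTB2 ended without gbf1 hy5 replicate 2, TET2 without either gbf1 hy5 array, and ATB2 and JAL22 without those or gbf1 hyh replicate 2. LUL4 ended without these 3 or either wild type array, and TRI, sks15 and UPF3 without any 1 wild type, gbf1 hy5 or gbf1 hyh array (adjusted p up to 0.297). Only ZW9, HTB2 and JAL22 of the 9 passed in a fit of the 4 double mutant arrays alone (adjusted p of the rest up to 0.101), and UPF3 and TRI did not pass after quantile normalisation (up to 0.0617).

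Several lists, some for pathways known to depend on HY5 in the light, held no called gene among their measured members. Called probe sets without 1 gene were not assigned to any list. None of 7 measured genes of flavonoid and anthocyanin synthesis, from a list of 56 names, was called (median 0.04). UGT78D1, a flavonol glycosyltransferase, differed by 0.73 (adjusted p = 0.128) and BAN, the anthocyanidin reductase, by -0.41 (adjusted p = 0.228). None of 20 bZIP factors other than the mutated genes was called, with bZIP52 at 0.71 (adjusted p = 0.276) and AT4G38900 at -0.58 (adjusted p = 0.294). None of 4 gibberellin and brassinosteroid genes was called, with GID1B at 0.37 and GID1A at -0.25, both gibberellin receptors. Of 4 abscisic acid and cold genes none was called, with the dehydrin LTI30 at -0.93 (adjusted p = 0.0805) and COR15B at -0.51 (adjusted p = 0.582). COR15B ran from -0.0634 without gbf1 hyh replicate 1 to -0.96 without replicate 2. Of 3 genes of nitrate and sulfate assimilation none was called, with the ATP sulfurylase APS3 at 0.69 (adjusted p = 0.313) and the sulfite reductase SIR at 0.19 (adjusted p = 0.654).

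The lists of jasmonate and defence genes (6 measured), cytochromes P450 (24), WRKY factors (7) and bHLH factors (6) also held no called gene. The largest absolute differences in these lists were -0.38 for the defensin PDF1.4, 0.70 for CYP71B5, 0.22 for WRKY6 and 0.39 for bHLH104. A list with few measured members and none called does not show that the pathway was alike in the double mutants. Nor does it show that family members outside the list were uncalled. Among tissue markers beside those of root hairs, none was called. The stomatal factors FMA (-0.72, adjusted p = 0.0815) and SPCH (0.14), the trichome factor TRY (-0.06) and the root beta-glucosidase PYK10 (0.27) did not pass. Of the 50 lists, 36 had a measured gene and 17 of these a called one.

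The share of called genes varied between chromosomes. Of measured nuclear genes 2.3% were called over the genome, with 116 of 3468 (3.34%) on chromosome 1, 62 of 2209 (2.81%) on chromosome 2 and 32 of 2756 (1.16%) on chromosome 3. Chromosome 4 held 47 of 1964 (2.39%) and chromosome 5 held 52 of 3018 (1.72%). In consecutive groups of 200 measured genes the share ran from 0% to 6% with a median of 2%, and 3 of 65 full groups held no call. The highest share was 12 of 200 in the group on chromosome 1 from AT1G53380 to AT1G59590, which holds ZW9 (AT1G58270). No test of this spread was made.

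Within 100 genes on either side of the mutated genes in the gene order, 2 of 74 measured genes (2.7%) were called around HYH, HYH itself and BGLU44. The count was 4 of 91 (4.4%) around HY5 and 3 of 70 (4.29%) around GBF1, among them CP1 and sks15. Outside these windows 300 of 13180 (2.28%) were called. Some called genes were also neighbours of each other. AT1G52050, AT1G52060 and AT1G52070 were 3 called genes with no uncalled measured gene between them on chromosome 1, each lower in gbf1 hy5, from -2.21 to -1.14. There were 6 such pairs besides. AT4G15680 and AT4G15690 on chromosome 4 were both lower, at -1.03 and -1.47, and AT1G22750, next to GI, was lower with it, at -1.37. AT1G28100 (0.95) and SCPL45 (1.17) were both higher, as were AT2G33180 and AT2G33220, from 0.98 to 1.14. The other 2 pairs split in direction, AT1G23120 (-0.84) with AT1G23130 (1.61) and AT1G78450 (1.202) with AT1G78460 (-1.75). Probe sets of neighbouring genes in 1 family can share transcripts, which was not tested here.

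**Figure D5:**
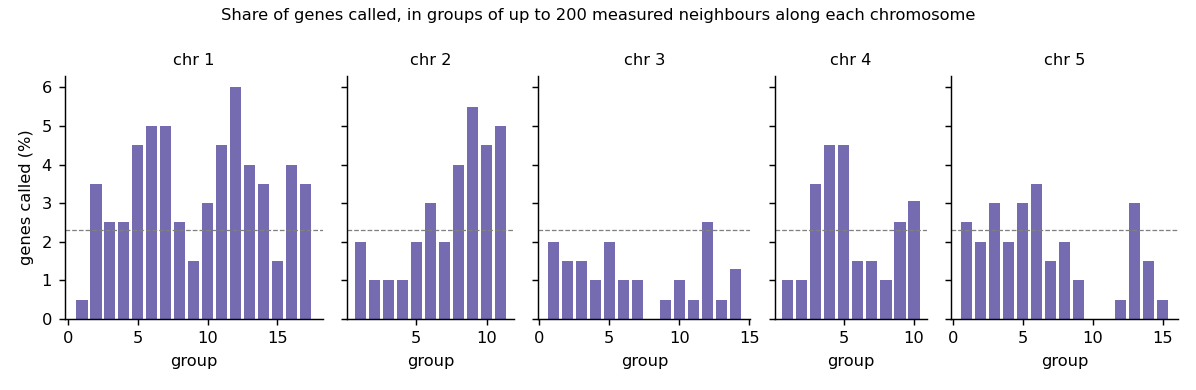
Share of genes called (y axis, %) in consecutive groups of up to 200 measured genes along each of the 5 chromosomes (x axis, group number), with the dashed line at the share over all nuclear genes, 2.3%. Groups on chromosome 1 and late groups on chromosome 2 reach 5% to 6%, and no group on chromosome 3 exceeds 2.5%.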

How the data were processed

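Total RNA of whole Arabidopsis thaliana seedlings was labelled by 3' in vitro transcription and hybridised to Affymetrix arrays, 1 array per sample, per the labels' protocols. The series design text names GeneSpring's RMA, and so do, with no version, the submitters' processing notes. Log base 2 was assumed for the deposited signals, as RMA usually writes log2, since no source used here gives the base. Each of the 22810 rows of the deposited log2 table had a median of 0 (to within 1e-06), so expression levels are absent from it and dim probe sets could not be filtered out. For the same reason tissue markers can show differences but not whether a tissue was present.

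The 64 AFFX controls were left out. With limma 3.58.1 in R 4.3.3 (lmFit, contrasts.fit, eBayes), 4 genotype means were fitted to the 8 arrays without a block. The residual degrees of freedom were 4 and the prior ones 5.124. Benjamini-Hochberg adjustment covered the 22746 probe sets. The script was tested on simulated data. The probe table tied 13513 probe sets to 1 gene, 503 to several and 8730 to none. A gene table of assembly TAIR10.1, which held 13484 of the first group, gave names and gene order only, and 1580 probe sets carried a symbol. For GBF1 and HY5 that probe table gave no separate probe set.

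The members, the 50 gene lists and the naming rule were chosen with earlier results of these data known. The rule named the mutated genes, the 12 largest called rises and 12 largest called falls, up to 4 called members of each list, and up to 2 members as values for a list with no call. The 54 called genes with a symbol, and a few uncalled list members, were added after their values were seen. 22 wrong matches of list words were left out. Lists are described by counts and medians, without a list test. Promoter and protein sequences were not analysed here. Replicate numbers were not taken as pairs in the main fit. Deviations of same-numbered arrays correlated at -0.113 between the double mutants. They correlated at 0.336 between gbf1 and gbf1 hyh, whose second arrays both had high hybridisation control signal. In the remaining pairs of genotypes the correlation ran from -0.0244 to 0.0917. Alternatives were quantile normalisation, each array centred on its median, array weights, a robust prior and a replicate block. Others used the double mutants alone, probe sets of 1 gene alone, or left arrays out. Quantile normalisation was applied to the values centred per probe set. It therefore gave every array the same distribution of deviations from the median, which can shrink the differences of a genotype with larger ones. With 2 arrays per genotype, the number of arrays limits the precision.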

Additional observations from a re-analysis of the deposited data

How the results depend on the processing

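The count of called probe sets, 631 (400 higher and 231 lower in gbf1 hy5), ran from 162 to 794 with 1 array left out, from 106 to 498 for those higher and from 56 to 296 for those lower. It was lowest without gbf1 hy5 replicate 2 (162) or replicate 1 (175), then without gbf1 hyh replicate 2 (299) or either wild type array (380), and leaving out 1 array leaves its genotype with 1 sample that is assumed to vary like the others. Fitting the 4 arrays of the double mutants alone gave 376 (237 higher, 139 lower), and probe sets of 1 gene alone gave 271 (169 and 102) in a test of fewer probe sets. The following settings stayed within 1.5 times: 655 without both high-control arrays, 555 after quantile normalisation, 639 with each array centred on its median, 730 with array weights and 594 with a robust prior. In the labels same-numbered replicates share only the number, and the replicate block gave 736 (474 and 262). A crossed pairing of the double mutants' replicates, chosen after seeing the data, gave 501 (324 and 177). Of the 74 called genes named, 25 passed with any 1 array left out and under every alternative, 48 passed in the fit of the double mutants alone, 59 without both high-control arrays, 62 after quantile normalisation, 63 over probe sets of 1 gene, 69 with a robust prior, 71 with the replicate block, 73 with array weights and 58 with the crossed pairing, and 0 changed sign. Of the uncalled genes named, SPCH ran from -0.0535 without gbf1 hy5 replicate 2 to 0.332 without replicate 1, and the defensin gene PDF1.2b from -0.0217 without gbf1 hy5 replicate 1 to 0.443 without replicate 2. The planned count of G-box elements in promoters was not run. Signals near background cannot be recognised in values centred per probe set.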

Other observations

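Most enzymes that conjugate small molecules were not called. Of 43 measured UDP-glycosyltransferases, UGT74B1 was called higher in gbf1 hy5 and 42 did not pass (2.33% called, the background share being 2.29% of probe sets tied to 1 gene, with a median of -0.03 against -0.01 over all probe sets). UGT87A2 had the lowest difference of the family (-1.57, adjusted p = 0.0569), and UGT76C2, which glucosylates cytokinins, differed by 0.83 (adjusted p = 0.140). Of 12 measured glutathione S-transferases, GSTU20 was called higher and 11 did not pass (8.33% called, median 0.06). The tau-class members GSTU26 (-0.73, adjusted p = 0.0951) and GSTU28 (-0.63, adjusted p = 0.140) lay on the other side of 0. Among jacalin-type lectins JAL33 was low in both double mutants, at -2.40 and -2.57 in gbf1 hy5 and at -3.18 and -2.15 in gbf1 hyh, with wild type at 2.15 and 2.69, and its difference between them did not pass (0.18, adjusted p = 0.876). These genes were chosen after their values were seen.

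The direction of the calls also varied by chromosome. On chromosome 1, 79 called genes were higher in gbf1 hy5 and 37 lower, and on chromosome 5 the counts were 25 and 27. This difference was not tested.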
